A study of Mus musculus with 25 samples.

Results

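A set of 701 genomic sites at which TCF-1 was found both in DN3-like T cell precursors and in fibroblasts that had been made to express it, and at which CTCF was not called in the precursors, was examined. TCF-1 is the DNA-binding factor encoded by Tcf7. Sites were built from the 2 peak lists of TCF-1 in DN3 cells: the peaks were merged wherever they touched, and the 3107 merged regions present in both lists were kept out of 7161 in either. Of these 3107 sites, 2416 (77.8%) also overlapped a TCF-1 peak of the fibroblasts, and 701 of the 2416 (22.6% of all DN3 sites) overlapped no CTCF peak of either CTCF list of the same DN3 cells. The members were therefore selected on the TCF-1 lists and on the CTCF lists of the TCF-1-expressing DN3 cells, and nothing about those lists is a finding. The other DN3 sites fell into 1715 shared with fibroblasts that had CTCF, 327 found in DN3 cells only without CTCF, and 364 found in DN3 cells only with CTCF.

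The study asked how TCF-1 takes part in the folding of the genome, and its 25 samples are chromatin immunoprecipitations followed by sequencing. NIH-3T3, a mouse embryonic fibroblast line, was untreated (2 CTCF lists, 1 SMC1 list) or TCF1 induced (2 CTCF, 1 SMC1 and 1 TCF-1 list). Scid.adh, a mouse thymic lymphoma line used as a model of the DN3 stage of T cell development, carried an empty vector (2 lists each of CTCF, SMC1, NIPBL, H3K27ac and TCF-1) or was TCF1 KO, a knockout of TCF-1 (2 lists each of the same antibodies except TCF-1). The labels do not say how TCF-1 was induced, whether the knockout line is a single clone, or whether replicate lists came from separate cultures, so spread between lists may be technical. No TCF-1 list of the knockout or of untreated fibroblasts was analysed here, so the loss of TCF-1 at these sites was taken from the labels. Files hold peak positions, not reads, so the depth is unknown and a missing peak means only that none was called. The DN3 lists held between 4978 peaks (TCF-1) and 96416 peaks (SMC1), and the fibroblast TCF-1 list held 39489.

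TCF-1 is a high-mobility-group protein that binds a short CTTTGA-type sequence and is required for the earliest steps of the T cell lineage. CTCF is a zinc finger protein that halts the ring-shaped cohesin complex, of which SMC1 is a subunit, and so anchors many chromatin loops. NIPBL loads cohesin onto chromatin and stimulates its movement, and H3K27ac, acetylated lysine 27 of histone H3, marks active promoters and enhancers. A site with TCF-1 but no CTCF is thus a place where cohesin and its loader can be looked at with no CTCF peak called on the site itself. Such a peak could still be close, and lay within 1 kb of 168 of the sites (24.0%) in the empty vector lists.

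Most of the 701 sites lay at the start of a gene. The widest of all was at Eif5, which encodes a translation initiation factor (1644 bp), and the next at the paired promoter of Dnajb4 and Fubp1 (1424 bp). They were followed by Rbm26 and Qk, whose products bind RNA (1399 and 1387 bp), Cetn3 (1261 bp), Cnot6l (1236 bp), the pair Styxl1 and Mdh2 (1233 bp), the splicing factor gene Srsf10 (1223 bp), and Ankrd13c and Rbpj (1188 bp each). Rbpj encodes the DNA-binding partner of Notch, and its site covered 2 annotated starts of the gene, although the nearer end of the gene body was 34294 bp away. The median width was 487 bp, with a range from 215 to 1644 bp, and it is given only as a description because the TCF-1 peaks chose the sites.

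Promoter sequence at some of these sites is shown because it lets the TCF/LEF core be seen in place. The letters are RefSeq sequence of GRCm38.p6 for the 250 bases before an annotated transcription start, on the strand of the gene. Capitals mark the TCF/LEF core CTTTGA or the related core CTTTGT, read on either strand (TCAAAG and ACAAAG on the other). Mrpl43, Ankrd13c and Zfp869 came first by the rule for printing, since their windows held a core before the start. The windows of Lrif1 and Prpf31 held it after the start, outside the stretch printed. Cox7b held 2 related cores. Agbl3, which held neither, was added after its values were seen, because its peaks of SMC1, NIPBL and H3K27ac were called in empty vector only.
Mrpl43, chr19:45006443-45006692, minus strand: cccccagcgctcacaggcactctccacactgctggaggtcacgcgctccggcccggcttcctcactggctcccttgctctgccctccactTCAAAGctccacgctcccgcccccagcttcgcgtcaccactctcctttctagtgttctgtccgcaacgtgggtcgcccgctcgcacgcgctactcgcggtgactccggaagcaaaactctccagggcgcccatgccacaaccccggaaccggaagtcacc
Ankrd13c, chr3:157946750-157946999, plus strand: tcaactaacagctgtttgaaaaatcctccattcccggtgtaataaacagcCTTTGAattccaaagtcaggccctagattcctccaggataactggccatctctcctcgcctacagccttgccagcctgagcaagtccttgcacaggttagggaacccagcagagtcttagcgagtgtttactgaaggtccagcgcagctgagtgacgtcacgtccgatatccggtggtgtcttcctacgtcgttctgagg
Zfp869, chr8:69716903-69717152, minus strand: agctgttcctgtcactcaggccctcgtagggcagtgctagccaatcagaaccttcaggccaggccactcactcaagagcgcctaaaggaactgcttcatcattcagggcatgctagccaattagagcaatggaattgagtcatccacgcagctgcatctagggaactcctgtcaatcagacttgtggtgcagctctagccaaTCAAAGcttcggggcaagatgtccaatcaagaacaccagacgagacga
Cox7b, chrX:106015450-106015699, plus strand: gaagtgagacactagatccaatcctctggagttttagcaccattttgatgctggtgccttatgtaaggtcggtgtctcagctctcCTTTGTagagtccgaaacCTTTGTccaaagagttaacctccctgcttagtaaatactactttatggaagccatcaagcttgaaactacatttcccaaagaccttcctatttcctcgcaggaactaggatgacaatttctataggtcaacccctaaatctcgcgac
Agbl3, chr6:34780182-34780431, plus strand: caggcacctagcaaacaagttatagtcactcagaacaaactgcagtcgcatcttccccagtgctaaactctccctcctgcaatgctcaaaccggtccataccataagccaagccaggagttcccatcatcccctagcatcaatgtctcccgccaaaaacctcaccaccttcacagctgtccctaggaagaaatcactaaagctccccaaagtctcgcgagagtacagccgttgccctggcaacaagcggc

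Of the 701 sites, 624 (89.0%) lay inside a protein-coding gene body and 549 (78.3%) had a gene end, a start or a 3′ end, within 1 kb. RefSeq promoter windows, which run from 250 bases before to 50 bases after a start, could be compared on all chromosomes except 18, which left 684 sites. The centre of 531 of them (77.6%) was within 1 kb of a transcription start, with a median signed distance of 6 bp and quartiles at -86 and 89.5 bp. The sites thus sat on the start itself and not to a side: 259 of the 531 (48.8%) were upstream. Promoter windows overlapped 485 sites (70.9% of 684), and at 100 of the 485 (20.6%) the windows belonged to different genes on opposite strands. Rps28 with Ndufa7 and Styxl1 with Mdh2 are pairs of this kind.

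**Figure D1:**
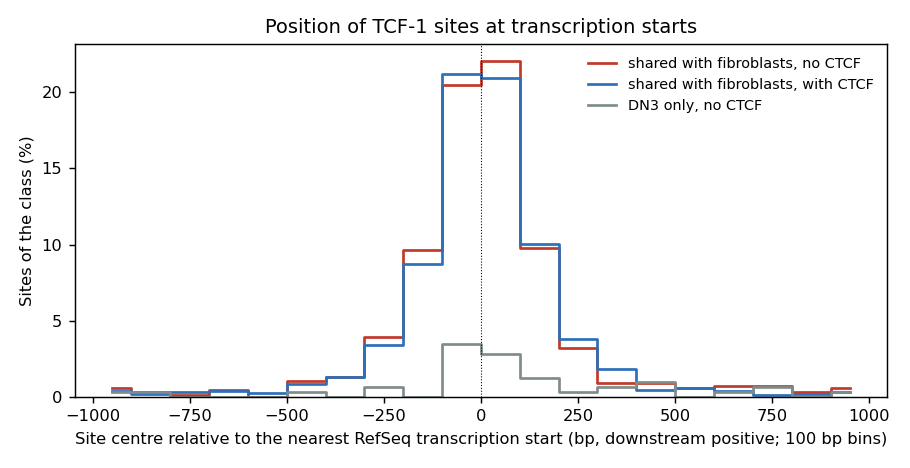
Distance of the centre of a DN3 TCF-1 site from the nearest RefSeq transcription start (bp, 100 bp bins, downstream positive) against the percentage of the sites of each class. The CTCF-free shared sites and the shared sites with CTCF make the same peak at the start, with quartiles of -86 and 89.5 bp for the former, whereas few DN3-only sites without CTCF fall within 1 kb (12.2%).

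Position at gene ends separated shared sites from DN3-only sites. Classes of sites were compared with a logistic model over all 3107 sites that took the width of a site into account and clustered the variance by chromosome, with Benjamini-Hochberg adjustment over 12 tests; sites are not replicates of a condition, so the intervals describe these lists. A gene end was that near at 78.3% of the 701 sites and at 13.1% of DN3-only sites without CTCF (n = 701 and 327 sites, odds ratio 19.4, 95% interval 14.8 to 25.6, adjusted p = 3.94e-14, same direction on 20 of 20 chromosomes). Against the 1715 shared sites with CTCF, 81.0% of which had a gene end within 1 kb, the odds ratio was 0.901 (n = 701 and 1715 sites, 0.737 to 1.10, adjusted p = 0.316, same direction on 13 of 20 chromosomes), so a difference was not detected.

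The remaining 152 sites had no gene end within 1 kb, where starts inside a gene body, such as those of Rbpj, do not count as ends. They were narrower, with a median width of 377.5 bp against 505 bp, and included sites inside Tcf7l2, a gene of the TCF/LEF family (50780 bp from an end), and inside Tnfrsf19, a Wnt-responsive receptor gene (34116 bp from an end). Sites more than 10 kb from any protein-coding gene numbered 29. The farthest lay 369932 bp from Dab2, at chr15:5929543-5929856. Sites were scattered, with a median gap of 1379380 bp, and only 14 had the next one within 10 kb.

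Genes with a site within 10 kb of the body numbered 1088 of 21900 protein-coding genes (4.97%), and those with an end within 1 kb of a site numbered 675 (3.08%). The gene lists described here are counts beside those shares, with no test. Among genes of protein synthesis, 15 of 84 ribosomal protein genes (17.9%) had a site, Rps28 with 2 and Rpl19, Rpl17, Rps15a, Rps7 and Rps6 with 1 each. So did 14 of 78 mitochondrial ribosomal protein genes (17.9%), among them Mrps7, Mrpl43 and Mrpl57. Of 72 genes with symbols of translation initiation and elongation factors, 9 (12.5%) had a site, led by Eif5, Eif4a3, which encodes an RNA helicase of the exon junction complex, and Eef1a1, which encodes the factor that brings tRNA to the ribosome. Shared sites with CTCF lay within 10 kb of 22 ribosomal protein, 16 mitochondrial ribosomal protein and 22 translation factor genes. Over all 21900 genes, 2479 had a shared site with CTCF that near, against 1088 with a CTCF-free one.

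Genes of RNA handling and energy supply were similar. Splicing factor genes had a site in 13 of 69 cases (18.8%), and Srsf10, Prpf31, Hnrnpab and Hnrnpf had 2. Nuclear pore genes had a site in 6 of 21 cases (28.6%), among them Nup62, Nup160 and Nup50, although only 4 had an end within 1 kb of a site. Of 91 genes of oxidative phosphorylation, 15 (16.5%) had a site, such as Ndufa7, Atp5g1, Ndufa11 and Cox7b. Here too shared sites with CTCF were near more genes than the CTCF-free ones, as over all genes. They lay within 10 kb of 21 splicing factor, 7 nuclear pore and 21 oxidative phosphorylation genes. Proteasome subunit genes (5 of 48, 10.4%, such as Psmb2), genes of RNA polymerases and Mediator (7 of 58, 12.1%), chaperone genes (7 of 79, 8.86%) and ubiquitin-conjugating enzyme genes (5 of 37, 13.5%) were between those lists and the share of all genes. With an end within 1 kb of a site, as in 3.08% of all genes, the counts were 5, 3 (5.17%), 6 and 1 (2.70%). The C2H2 zinc finger genes (18 of 397, 4.53%) and the aminoacyl-tRNA synthetase genes (2 of 35, 5.71%) were near the 4.97% of all genes with a site within 10 kb. Olfactory receptor genes had a site in 0 of 1110 cases.

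None of 18 T lineage regulators had a site within 10 kb, although 10 of the 18 had a DN3 TCF-1 site of another class. Those sites belonged to Bcl11b, Ikzf1, Ikzf3, Lef1, Myb, Tcf12, Tcf3, Tcf7, Themis and Zbtb7b. Of the 10 genes, 6 had a DN3-only site with CTCF, 4 a DN3-only site without CTCF and 3 a shared site with CTCF. Over all 21900 protein-coding genes, 17.4% had a DN3 TCF-1 site of any class within 10 kb. By class, 334 of the 21900 had a DN3-only site with CTCF, 265 a DN3-only site without CTCF and 2479 a shared site with CTCF. Tcf7 itself, at chr11:52246527-52283383, had 2 DN3 sites and 7 fibroblast TCF-1 peaks within 10 kb but none of the 701. Ptcra was the only one of 20 T cell receptor and pre-TCR genes, and of 12 Notch targets, with a site within 10 kb, and that site lay inside the neighbouring 2310039H08Rik. Tnfrsf19 was the only one of 15 Wnt pathway targets. Beside the 4.97% of all genes, a count of 0 or 1 in lists this short is near the background, and nothing is read from it.

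Lists of markers of other cell types are as short, and the same holds for them: 0 of 12 B lineage, 0 of 12 myeloid and 0 of 11 innate lymphoid and natural killer genes had a site. None of 22 fibroblast genes had one, although 21 of the 22, and 13484 of all 21900 genes, had a fibroblast TCF-1 peak within 10 kb. Cell cycle genes had 1 of 23 (E2f3), and cohesin, loader and CTCF genes 1 of 15, Mau2, which encodes the partner of NIPBL in loading cohesin. Common reference genes, on the other hand, had 3 of 14 (21.4%), among them B2m and Gapdh. A shared site with CTCF was within 10 kb of 8 of the 14, and of 2479 of all 21900 genes.

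The promoter windows at the sites were rich in G and C. They numbered 645 and belonged to 586 genes. Their G and C content was 61.9%, against 65.0% in the 1606 windows at shared sites with CTCF and 53.8% in all 32851 windows, and the median number of CG dinucleotides was 24, 27 and 7. The TCF/LEF core CTTTGA was in 10.2% of the 645 windows, in 10.6% of those with CTCF and in 16.0% of all windows. The related core CTTTGT was in 10.1%, 10.3% and 18.7%. Both cores were thus less frequent at TCF-1-occupied promoters than in promoter windows at large, in windows that also differ in base composition. Of the promoters printed, Agbl3, with no core in capitals, is the more usual case.

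Other short motifs were searched on both strands, and none of them contains another. The ETS motif CCGGAAG was in 27.8% of the 645 windows, against 24.5% of windows at shared sites with CTCF and 8.86% of all windows. The Sp/KLF motif GGGCGG was in 67.8%, 75.6% and 35.7%. YY1 (AAGATGG) was in 11.3%, 7.41% and 6.34%, and the ZNF143-type motif ACTACAATT in 2.02%, 0.685% and 0.393%. CRE (TGACGTCA) was in 5.12%, 4.42% and 1.79%, NRF1 (GCGCATGC) in 6.36%, 6.66% and 2.71%, and the E-box CACGTG in 10.1%, 10.8% and 7.15%. CCAAT was in 36.7%, 36.7% and 37.4% of windows. Less frequent than in all windows were the TATA box TATAAA (5.58%, 6.16% and 13.6%), AP-1 (TGACTCA, 2.17%, 2.18% and 5.20%) and RUNX (TGTGGTT, 4.50%, 3.24% and 5.27%). These are matches of letters, counted with no test, and overlapping windows of 1 gene share bases.

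**Figure D2:**
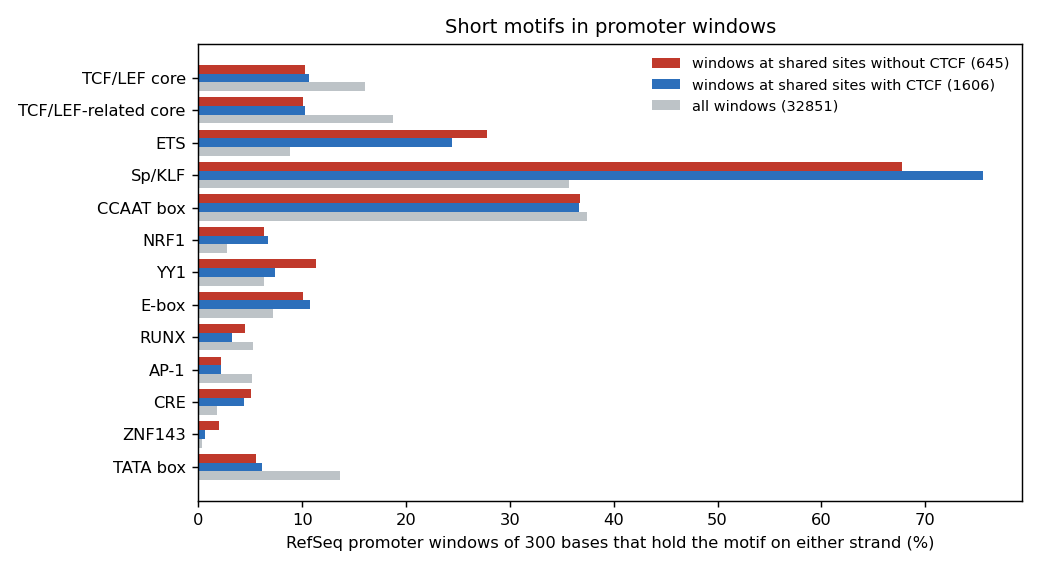
Percentage of 300-base RefSeq promoter windows that hold each short motif on either strand, for the 645 windows at CTCF-free shared sites, the 1606 at shared sites with CTCF and all 32851. ETS stands at 27.8% and 24.5% in the occupied windows against 8.86% in all, and the TCF/LEF core at 10.2% and 10.6% against 16.0%.

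Presence in the 20 lists that the choice of sites did not use differed by antibody, with SMC1 and H3K27ac on nearly all sites, NIPBL varying between lists and CTCF on few. A site was in a median of 14 of them, with a range from 0 to 20, and 266 sites were in exactly 14. Cohesin was almost always there: 97.1% and 99.4% of the 701 sites overlapped an SMC1 peak in the empty vector lists, and 99.1% in each knockout list. H3K27ac covered 98.9% and 98.7% in empty vector and 98.4% in each knockout list. NIPBL was on 68.3% and 91.4% in empty vector and on 98.1% and 84.3% in the knockout. In fibroblasts, SMC1 was on 96.4% without and 97.3% with induced TCF-1. All 12 DN3 lists of SMC1, NIPBL and H3K27ac held 447 sites (63.8%), and all 6 SMC1 lists of both cell lines held 653 (93.2%).

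**Figure D3:**
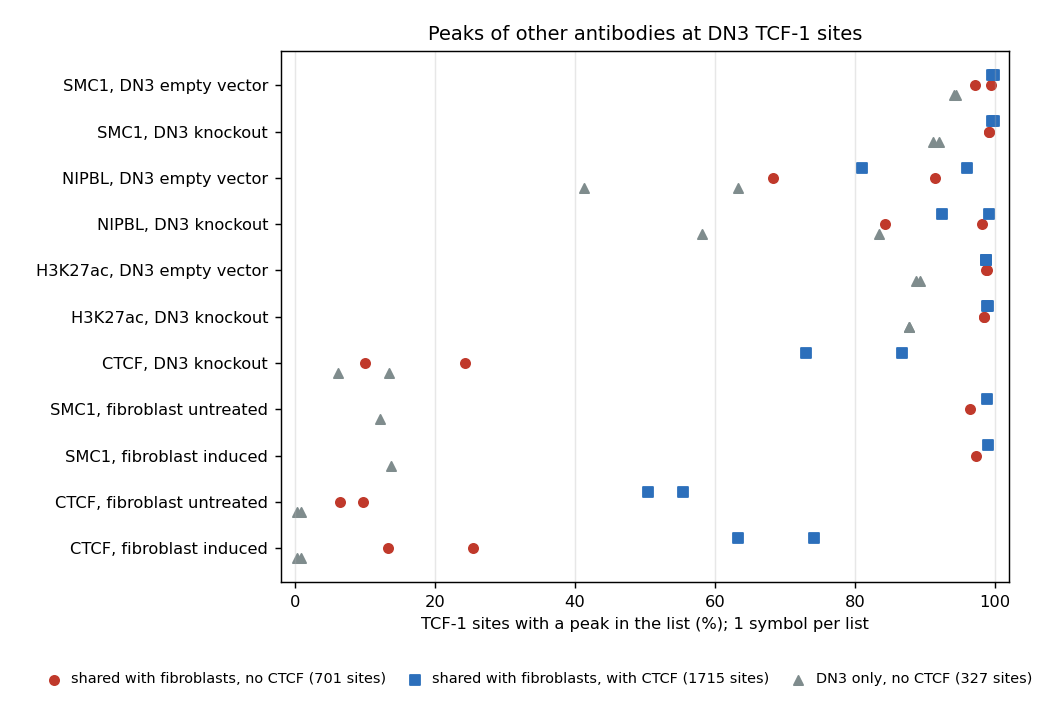
Percentage of DN3 TCF-1 sites of 3 classes that overlap a peak in each list of the other antibodies, with 1 symbol per list. SMC1 and H3K27ac sit between 97.1% and 99.4% for the CTCF-free shared sites in every DN3 list, and NIPBL differs more between lists of 1 condition (68.3% and 91.4%). Fibroblast SMC1 is at 96.4% of these shared sites and 12.2% of DN3-only sites, classes that were themselves split by a fibroblast TCF-1 peak.

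H3K27ac peaks at the sites were strong. The fold enrichment that the authors deposited had a median of 8.0 and 8.07 at the sites in the empty vector lists, where the median over each list was 3.33 and 3.28. Shared sites with CTCF were alike in this, with medians of 7.68 and 7.86. In the knockout lists the medians were 7.80 and 7.54 at the sites and 3.36 and 3.33 over the lists. Fold enrichment is the authors' value for each peak and ranks peaks within its own list only. The NIPBL peaks at the sites had medians of 2.86 and 3.35 in empty vector, where the medians over the lists were 2.94 and 3.30. In the knockout they had 4.08 and 2.98, against 3.50 and 3.08 over the lists. Ranked by q, the NIPBL peaks at the sites stood higher in their lists than by fold. Their median percentile was 63.3 and 71.5 in empty vector and 81.5 and 69.0 in the knockout.

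Compared with shared sites that had CTCF, the 701 sites had cohesin and its loader somewhat less often. NIPBL was in both empty vector lists at 67.6% of them and at 80.7% of shared sites with CTCF (n = 701 and 1715 sites, odds ratio 0.527, 95% interval 0.408 to 0.680, adjusted p = 0.000109, same direction on 19 of 20 chromosomes). SMC1 was in both at 97.1% and 99.5% (n = 701 and 1715 sites, odds ratio 0.165, 0.0669 to 0.407, adjusted p = 0.00088, same direction on only 11 of 20 chromosomes), which rests on few sites without a peak: with list 1 left out the odds ratio was 0.194 and the adjusted p = 0.0704. SMC1 in untreated fibroblasts was at 96.4% and 98.8% (n = 701 and 1715 sites, odds ratio 0.336, 0.186 to 0.609, adjusted p = 0.00164, same direction on 14 of 20 chromosomes). H3K27ac was at 98.7% of both classes (n = 701 and 1715 sites, odds ratio 1.16, 0.681 to 1.99, adjusted p = 0.560, same direction on 8 of 20 chromosomes), and the direction of that value turned under 4 alternatives.

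Compared with the DN3-only sites without CTCF, the 701 sites more often had NIPBL, H3K27ac and fibroblast SMC1. NIPBL was in both empty vector lists at 67.6% against 38.5% (n = 701 and 327 sites, odds ratio 2.64, 1.94 to 3.59, adjusted p = 7.91e-06, same direction on 18 of 20 chromosomes). That odds ratio was 4.36 with list 1 left out, 4.22 among wide peaks, 6.07 with TCF-1 in either list and 1.78 with a gene end in the model. H3K27ac was at 98.7% against 88.4% (n = 701 and 327 sites, odds ratio 6.42, 2.71 to 15.2, adjusted p = 0.000484, same direction on only 12 of 20 chromosomes). That difference was lost with position at a gene end in the model (n = 701 and 327 sites, odds ratio 2.62, adjusted p = 0.0633) and fell to 2.10 among wide peaks. SMC1 was at 97.1% against 91.7% (n = 701 and 327 sites, odds ratio 2.72, 0.815 to 9.08, adjusted p = 0.118, same direction on 10 of 20 chromosomes), and it passed the threshold with list 1 left out, with TCF-1 in either list or without the width term. SMC1 in untreated fibroblasts, which lack induced TCF-1, was at 96.4% against 12.2% (n = 701 and 327 sites, odds ratio 166, 88.5 to 310, adjusted p = 3.29e-12, same direction on 20 of 20 chromosomes). With a gene end in the model that odds ratio was 86.2, among wide peaks 109.6 and with TCF-1 in either list 103.6. The 701 sites were chosen for a TCF-1 peak in this fibroblast line and the DN3-only sites for its absence. The gap in fibroblast SMC1 is therefore not independent of the choice of sites, and its p-value cannot be read as if it were. Cohesin was called at 96.4% of the 701 sites in fibroblasts without TCF-1 induction.

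Position at a gene end moved with some of these values within the 701 sites. NIPBL was on 71.6% and 94.9% of the 549 sites near a gene end in the empty vector lists, and on 56.6% and 78.9% of the 152 others. SMC1 in untreated fibroblasts was on 99.3% and 86.2%. SMC1 in the DN3 empty vector lists differed little, with 97.3% and 99.6% against 96.7% and 98.7%.

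Almost all of these peaks were also called in the knockout of TCF-1. With 2 lists against 2, an exact permutation test over lists (2-sided) cannot go below p = 0.333. The share of sites with SMC1 was 97.1% and 99.4% in empty vector and 99.1% and 99.1% in the knockout, so the groups overlapped (difference 0.856 percentage points, exact permutation p = 1.0). The sign of the difference turned with empty vector list 1 left out (-0.285) and with lists cut to equal length (-0.357). The mean length covered by SMC1 peaks within a site and 1 kb to each side was 989 and 1107 bp in empty vector and 1214 and 1260 bp in the knockout. These groups did not overlap (difference 189 bp, exact permutation p = 0.333), and the knockout SMC1 lists were also longer over the whole genome (88886 and 96416 peaks against 70438 and 77587). With lists cut to equal length the difference was 173 bp.

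NIPBL differed more within a condition than between conditions. Its share was 68.3% and 91.4% in empty vector and 98.1% and 84.3% in the knockout (difference 11.3 percentage points, exact permutation p = 0.667). Without empty vector list 1 the difference was -0.214, without empty vector list 2 it was 22.9, and with lists of equal length it was -2.92. The covered length was 449.9 and 755 bp against 1155 and 646 bp (difference 298 bp, exact permutation p = 0.667), and it fell to 43.3 bp when knockout list 1 was left out. The share in each list followed the length of the list, from 9206 peaks in empty vector list 1 to 23951 in knockout list 1.

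H3K27ac differed little between conditions with all peaks counted. The covered length was 2157 bp in both empty vector lists and 2140 and 2139 bp in the knockout (difference -17.3 bp, exact permutation p = 0.333, groups apart). The share was 98.9% and 98.7% against 98.4% and 98.4%, a difference of -0.357 percentage points (exact permutation p = 0.333). Among peaks at or above the median width the differences were -55.0 bp and -3.28 percentage points.

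**Figure D4:**
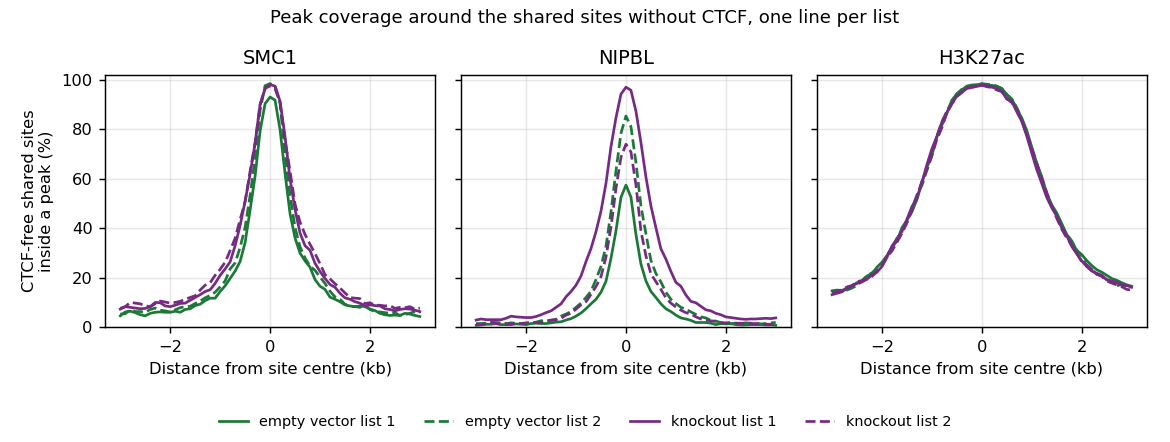
Percentage of the 701 sites that lie inside a peak at each distance from the site centre (kb), with 1 line per DN3 list. H3K27ac lines of both conditions lie on each other, SMC1 covers 93.2% to 98.6% of centres, and NIPBL ranges from 57.5% (empty vector list 1) to 97.1% (knockout list 1).

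Single sites with peaks in 1 condition only were few. SMC1 was in both empty vector lists and neither knockout list at 1 of the 701 sites, against 0.969% of all SMC1 regions, and the reverse held at 0 sites, against 9.26%. For NIPBL the counts were 2 (0.251% of all NIPBL regions) and 14, or 2.0% of the sites (5.88%). For H3K27ac they were 4, or 0.571% (7.99%), and 1, or 0.143% (4.83%). SMC1 was in all 4 DN3 lists at 679 sites, NIPBL at 459 and H3K27ac at 688. H3K27ac in 1 condition only was thus a smaller share here than over all H3K27ac regions. The same held at shared sites with CTCF (0 and 3 of 1715 sites). All regions also include weak peaks, while H3K27ac peaks at the 701 sites were stronger than the median of their lists.

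The site at the start of Agbl3, at chr6:34780152-34781065, was the only one with all 3 in empty vector and none in the knockout. Agbl3 encodes a carboxypeptidase that trims tubulin. Its covered lengths in the empty vector lists were 649 and 880 bp for SMC1, 721 and 645 bp for NIPBL and 1416 and 1389 bp for H3K27ac, and each was 0 bp in both knockout lists. The fibroblast SMC1 lists covered 2914 bp there untreated and 1549 bp with TCF-1 induced, so the site had cohesin in the other cell line in either condition.

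The site near Bahcc1 had NIPBL and H3K27ac in empty vector only. It lay at chr11:120231366-120231717, 1153 bp from the gene, with NIPBL over 449 and 1094 bp in empty vector and 0 bp in the knockout, while SMC1 covered 700 and 727 bp and then 812 and 784 bp. Cohesin was thus called there in the knockout and the loader was not. Its nearest empty vector CTCF peak was 12 bp away, so it passed the CTCF limit narrowly. Lrif1, whose product binds heterochromatin protein 1, had a small H3K27ac peak in empty vector only (328 and 260 bp, against 0 bp in both knockout lists) and had no NIPBL in any list. At the site near Bri3bp, H3K27ac overlapped the site in empty vector only, though 880 and 491 bp were covered within 1 kb in the knockout. Smyd2, 19281 bp from its site, was the reverse, with H3K27ac over 0 bp in both empty vector lists and over 729 and 905 bp in the knockout. The 14 sites with NIPBL only in the knockout included Ift22, Txndc9, Rere, Troap, Wdtc1 and Bod1.

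CTCF in the knockout can be described but not tested, since the choice of sites set the empty vector side at 0. CTCF peaks lay on 24.3% and 9.99% of the 701 sites in the knockout lists. The 39 sites in both lists were 5.56% of the sites. Of all 69615 DN3 CTCF regions, 6.36% were in both knockout lists and neither empty vector list. Each of those regions had a CTCF peak in some DN3 list, whereas 500 of the 701 sites had none. The shares thus have unlike bases and cannot be set against each other. The 39 sites included the opposite-strand pairs Kif24 with Nudt2 and Gga3 with Mrps7, and Zfp386, Supt16, which encodes a subunit of the histone chaperone FACT, the cluster Chtf8, Derpc and Utp4, and Hbs1l. No knockout list had CTCF at 500 sites (71.3%). CTCF was often near in the empty vector lists, within 1 kb of 168 sites (24.0%), with a median distance of 4499 bp.

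Fibroblasts gave CTCF lists that the choice of sites had not used. The sites were, however, chosen for a TCF-1 peak in the induced fibroblasts, so induced and untreated lists are not on equal terms. CTCF was on 6.42% and 9.70% of the 701 sites in untreated fibroblasts and on 25.4% and 13.3% with TCF-1 induced, so the groups did not overlap (difference 11.3 percentage points, exact permutation p = 0.333). The difference was 5.21 without induced list 1 and 17.3 without induced list 2. The induced lists were also longer, with 68306 and 64645 peaks against 38369 and 41236, and with lists cut to equal length the difference was 6.78. CTCF was in both induced lists and neither untreated list at 34 sites (4.85%), against 21.2% of all fibroblast CTCF regions, and the reverse held at 3 sites, against 0.0504%. Each of those regions had a CTCF peak in some fibroblast list, whereas 474 of the 701 sites had none. The shares thus have unlike bases, and no shortfall or excess is read from them. Rbpj, Taok1, Naa35, Mon1b, Eloc and the pair Gga3 and Mrps7 were the widest of the 34. At Rbpj the nearby 1 kb already held 315 and 602 bp of CTCF in untreated fibroblasts, and 2165 and 3040 bp after induction.

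The sites without CTCF in DN3 cells mostly lacked it in fibroblasts too. CTCF was in both untreated lists at 2.57% of the 701 sites and at 44.8% of shared sites with CTCF in DN3 cells (n = 701 and 1715 sites, odds ratio 0.0323, 95% interval 0.0191 to 0.0547, adjusted p = 1.10e-10, same direction on 20 of 20 chromosomes). With untreated list 1 left out the odds ratio was 0.0870, and with list 2 left out 0.0676. Against DN3-only sites without CTCF, of which 0.306% had it, the odds ratio was 8.66 (n = 701 and 327 sites, 0.955 to 78.5, adjusted p = 0.0726, same direction on 9 of 20 chromosomes), and it passed the threshold with either untreated list alone (34.3 and 7.28). These classes were split by a TCF-1 peak in the same fibroblast line, so that comparison is not independent of the choice of sites. The comparison with shared sites that had CTCF is not independent of it either, since CTCF in DN3 cells split those classes. Its p-value cannot be read as if it were. No CTCF was called at 380 sites (54.2%) in any knockout or fibroblast list. At the other extreme, 4 sites had CTCF in both knockout and all 4 fibroblast lists. The 39 sites with CTCF in both knockout lists had it in the induced fibroblast lists in 59.0% and 33.3% of cases, and the 500 without any had it in 17.8% and 9.2%.

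A few sites had no H3K27ac or no SMC1 called in any DN3 list. H3K27ac was absent from all 4 DN3 lists at 6 sites, near Tcf7l2, Ssbp4, Dab2, Gcnt4, Vstm2l and Ifnlr1, all between 262 and 324 bp wide. The intronic or exonic place of the Tcf7l2 site within the gene was not resolved here. SMC1 covered 203 and 462 bp around the Tcf7l2 site in empty vector and 239 and 388 bp in the knockout, NIPBL covered 0 bp in all 4 lists, and SMC1 in fibroblasts covered 0 bp untreated and 1509 bp with TCF-1 induced. SMC1 was in no DN3 list at 2 sites, Fmc1 and Ifnlr1. The Fmc1 site had NIPBL and H3K27ac in all lists (NIPBL over 323 and 1554 bp in empty vector), yet SMC1 covered 0 bp in all 4 DN3 and both fibroblast lists. The site near Ifnlr1, at chr4:135681858-135682119, was in none of the 20 lists. Fibroblast SMC1 appeared only with TCF-1 induced at 9 sites and only without at 3, with 1 list per condition and no test.

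The limits of the choice can be seen from the sites next to them. The smallest overlap with a fibroblast TCF-1 peak was 11 bp (Mgat3) and the closest empty vector CTCF peak 3 bp away (Insig2). Just outside, a site at Lrp5 overlapped CTCF by 3 bp, a site at Itprip lay 178 bp from a fibroblast TCF-1 peak, and 16 DN3-only sites were within 1 kb of one. Fibroblast TCF-1 peaks at the 701 sites had a median width of 701 bp, against 362 bp over the list.

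The share of shared sites that lacked CTCF differed between chromosomes. On chromosomes 1, 10 and 15, which were singled out after their values were seen, 89 of 630 shared sites were free of CTCF (14.1%), from 10.6% on chromosome 10 to 16.9% on chromosome 1. The share was 33.4% on the other autosomes (585 of 1751) and 77.1% on chromosome X (27 of 35). All DN3 TCF-1 sites numbered 32.2 per 100 protein-coding genes on chromosomes 1, 10 and 15, 11.9 on the other autosomes and 3.93 on X. The CTCF-free shared sites, in contrast, numbered 2.99, 3.31 and 2.80 in these 3 groups, although single chromosomes ran from 1.73 (chromosome 3) to 5.10 (chromosome 11), with none on Y. Peak lists give no copy number, and the cause of the differences between chromosomes was not tested.

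CTCF at shared sites followed the same order in DN3 cells and less so in fibroblasts. In the knockout lists it was on 83.2% and 70.3% of shared sites on chromosomes 1, 10 and 15, and on 64.3% and 49.9% on the other autosomes. In untreated fibroblasts it was on 41.0% and 44.3% against 37.0% and 41.9%. On X it was on 22.9% and 20% in the knockout lists and on 14.3% in each untreated fibroblast list. These 3 chromosomes held 32.5% and 33.9% of the peaks of the TCF-1 lists and 18% of each empty vector CTCF list, with 13.6% of the genes. Shared sites there were also wider (median 551.5 bp against 485 bp). The part of width in this was not tested.

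**Figure D5:**
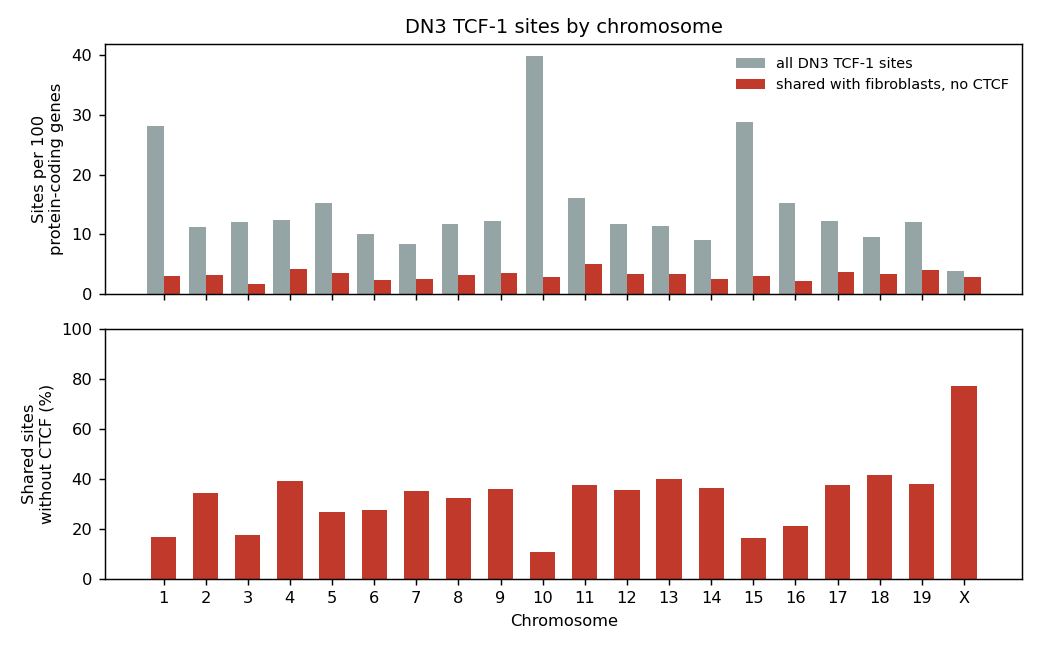
Upper panel, DN3 TCF-1 sites (grey) and CTCF-free shared sites (red) per 100 protein-coding genes on each chromosome. Lower panel, percentage of the sites shared with fibroblasts that lack CTCF. The grey bars are highest on chromosomes 1, 10 and 15 (32.2 per 100 genes together) while the red bars run from 1.73 on chromosome 3 to 5.10 on chromosome 11, with none on Y, and the share without CTCF is 14.1% there and 77.1% on X.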

How the data were processed

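Peak lists of 25 chromatin immunoprecipitation samples were used. Cells were fixed with formaldehyde and paired reads were sequenced on a NextSeq 550, per the labels' protocols. Per the submitters' processing notes, Bowtie2, MACS2, bedtools and build mm10 were used; no version, setting or control library was given in the sources used here. The CTCF, SMC1 and TCF-1 lists that the authors deposited hold positions only. The NIPBL and H3K27ac lists that the authors deposited also hold, per peak, a fold enrichment (ratio), a score and p and q as −log10 values; only the fold and q were used, to describe peaks within a list.

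An overlap of at least 1 bp counted as presence. Genes and promoter windows came from RefSeq tables of GRCm38.p6 (21900 protein-coding genes, 32851 windows). Without exon annotation, introns and exons were not told apart. Conditions were compared over lists with 2-sided exact permutation tests, and classes of sites with a logistic model (statsmodels 0.14.6, log2 width as covariate, variance clustered by chromosome, t reference with 1 degree of freedom fewer than chromosomes). Merging was checked against bedtools 2.31.1 and the model tested on simulated data. Named genes were those of the 10 widest sites, the 10 genes with most sites, up to 6 per gene list, per antibody and direction of change and per CTCF or H3K27ac pattern, sites next to the limits, and Tcf7. Some genes under that rule are not reported here. Genes named besides these were picked with their values known. The 701 sites, the 24 gene lists and the 13 motifs were chosen with earlier results of these data known. Alternatives were an overlap of 50%, wide peaks only, equal list length, TCF-1 in either list, no CTCF within 1 kb, a gene end within 5 kb, merging across 500 bp, each list left out, a replicate block and no width term. Added after seeing the data were leaving out chromosomes 1, 10 and 15, chromosome as a term, a gene end as covariate and sites near a gene end only. Scripts ran under python 3.11.15 with pandas 2.3.3, numpy 2.4.6, scipy 1.17.1 and matplotlib 3.10.9.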

Additional observations from a re-analysis of the deposited data

How the results depend on the processing

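Of the alternative values, 77 of 81 comparisons over lists, 13 of 14 shares with no test and 97 of 109 class contrasts kept their direction and their side of the threshold or stayed within the spread; no comparison over lists could pass a threshold. With lists cut to equal length the knockout difference in share became -0.357 for SMC1 and -2.92 for NIPBL. Leaving out single lists gave from -0.285 to 2.0 for SMC1 and from -0.214 to 22.9 for NIPBL. The covered length ranged from 130 to 248 bp for SMC1, from 43.3 to 552 bp for NIPBL and from -17.6 to -17.0 bp for H3K27ac, the H3K27ac share from -0.428 to -0.285, and the fibroblast CTCF share from 5.21 to 17.3. Among peaks at or above the median width, CTCF in the knockout lists was on 4.85% of the sites in place of 17.1%, the mean of both lists. The cause of these changes was not tested.

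For SMC1 against shared sites with CTCF, leaving out lists gave odds ratios from 0.168 to 0.194. For SMC1 against DN3-only sites they ran from 1.73 to 12.1, with 3.06 without the width term and 8.75 with TCF-1 in either list. For H3K27ac against shared sites with CTCF the odds ratio was 0.999 without the width term, 0.752 with TCF-1 in either list, 0.736 with CTCF within 1 kb and 0.918 among wide peaks. Against DN3-only sites it was 2.62 with a gene end in the model. For CTCF in untreated fibroblasts against DN3-only sites it was 6.79 with TCF-1 in either list and from 7.28 to 34.3 with a list left out; it could not be fitted with CTCF within 1 kb, where 0 of 264 DN3-only sites had the peaks. With TCF-1 in either list there were 1399 sites, and with no CTCF within 1 kb 533. Genes with a site numbered 726 without the extension by 10 kb.

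Replicate numbers paired no samples: deviations of same-numbered lists correlated at 0.0481 for SMC1, -0.227 for NIPBL, 0.0548 for H3K27ac and -0.0798 for fibroblast CTCF. A replicate block left every difference as it was (for example 189 bp for SMC1 and 11.3 percentage points for fibroblast CTCF), with 0.5 as the smallest exact p. Depth was unknown throughout, and a peak that was not called is not an absent protein.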
